A study of Xenopus tropicalis x Xenopus laevis and Xenopus laevis and Xenopus tropicalis with 8 samples.

Results

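The 10988 transcripts described here are the *X. tropicalis* transcripts that stood at 1 TPM or more (TPM, the share of a transcript in its library scaled to a fixed total) in both libraries of *X. tropicalis* embryos. They were taken from 14036 *X. tropicalis* transcripts and from 34647 transcripts of both species. Each was measured in le × ts hybrid embryos, in which *X. laevis* eggs were fertilized by *X. tropicalis* sperm, and set against *X. tropicalis* embryos. Polyadenylated RNA of whole embryos at stage 9 (9 h post-fertilization in the sample labels) had been sequenced in 8 libraries, 2 for each of 4 crosses. The *X. laevis* and *X. tropicalis* embryos had both parents of 1 species. The te × ls embryos, with an *X. tropicalis* egg and an *X. laevis* sperm, are the reciprocal cross. That cross dies at the time the zygotic genome becomes active, whereas le × ts embryos are viable. The labels name no transgene and no treatment. Libraries are numbered 1 and 3 in every group, and the text of the series calls its replicates biological and gives more of them than these 2. Whether they came from separate clutches is not said, so a p-value here measures only the spread between these libraries. The labels give the same age for both species, and whether the embryos were equally far in development was not tested.

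The frog egg is loaded with RNA made by the mother, and the first cleavages run on this store with almost no transcription. At the midblastula transition the embryonic genome is switched on, a step called zygotic genome activation, and part of the stored RNA is later destroyed. In le × ts embryos the egg brings *X. laevis* RNA only, and the *X. tropicalis* chromosomes arrive with the sperm, which is thought to bring little messenger RNA. In *X. tropicalis* embryos the same transcripts come from the egg, from the maternal chromosomes and from the paternal chromosomes together.

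For each transcript a ratio was computed as the mean TPM in le × ts minus the mean TPM in *X. laevis* embryos, divided by the mean TPM in *X. tropicalis* embryos. *X. laevis* embryos hold no *X. tropicalis* chromosomes, so their value is the background of mapping. The le × ts embryo has 1 *X. tropicalis* chromosome set, from the sperm, and *X. tropicalis* embryos have a set from each parent. The *X. laevis* egg brings both the L and the S chromosomes of an allotetraploid species. TPM is a share of all RNA of both species, so the ratio compares shares of RNA and not output per gene copy. In whole embryos, fewer transcribing cells and less RNA per cell cannot be told apart.

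The 10988 transcripts held 99.7% and 99.4% of all TPM in replicates 1 and 3 of *X. tropicalis* embryos. They held 0.664% and 1.01% in le × ts, against 0.290% and 0.328% in *X. laevis*. The higher share of le × ts replicate 3 came with 6 transcripts of high background, among them *stim1* (827 and 4987 TPM in le × ts, 809 and 740 TPM in *X. laevis*) and *tnnt2* (107 and 754 TPM in le × ts, 108 and 103 TPM in *X. laevis*). TPM keeps no read number, but the steps between low values put le × ts replicate 3 at 0.451 times the reads of le × ts replicate 1, and *X. tropicalis* replicate 3 at 0.323 times those of its replicate 1. Among 9 transcripts of testis and sperm markers none was above background in le × ts. Their summed level was 1.63 and 0 TPM there, 0 to 0.106 TPM in *X. laevis*, and 119 and 180 TPM in *X. tropicalis* embryos.

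Most *X. tropicalis* transcripts were near 0 in le × ts embryos. The ratio was 0.01 or less in 10278 transcripts (93.5%), between 0.01 and 0.1 in 477, between 0.1 and 0.5 in 196, between 0.5 and 2 in 32, and above 2 in 5. The median ratio was 0, and 4178 transcripts were at 0 TPM in both le × ts libraries. A transcript was counted as above background when both le × ts libraries stood at 1 TPM or more and the lower of them was at least 2 times the higher *X. laevis* value. This held for 181 of the 10988 (1.65%), against 0.543% of all transcripts of both species and 1.30% of all *X. tropicalis* transcripts. With the groups exchanged, 1 of the 10988 met the condition, and 0.0952% of all transcripts. That transcript was *birc5*, at 1.16 and 1.46 TPM in *X. laevis* and 0 and 0.540 TPM in le × ts. Of the 181 transcripts, 27 had a ratio of 0.01 or less, 58 lay between 0.01 and 0.1, 75 between 0.1 and 0.5, and 21 at 0.5 or more.

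**Figure D1:**
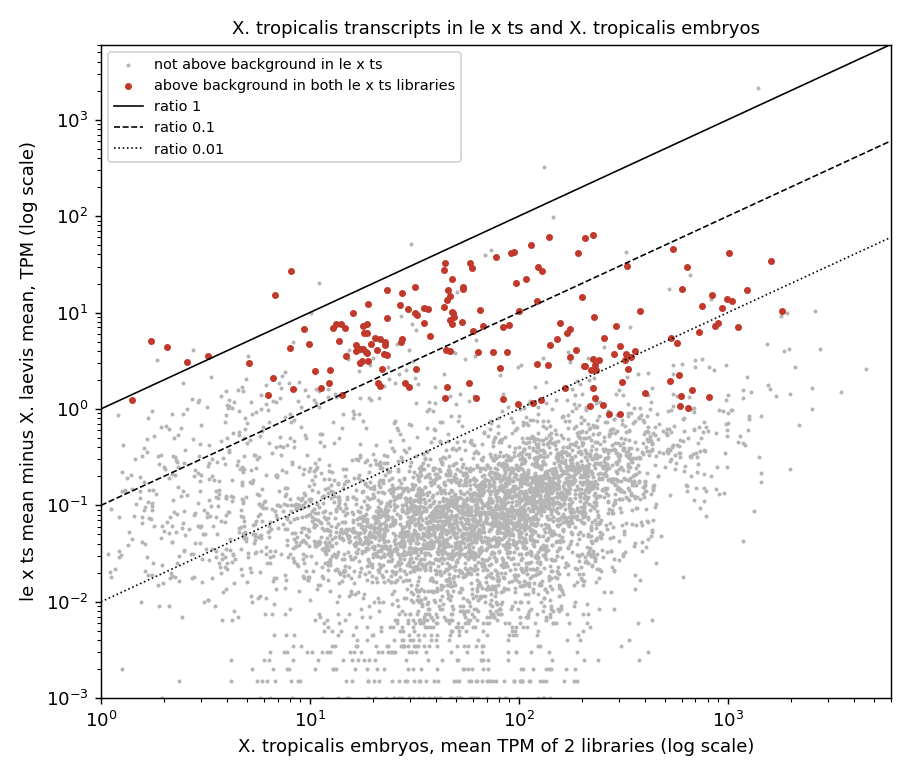
Level of each *X. tropicalis* transcript in *X. tropicalis* embryos (x axis, mean TPM of 2 libraries, log scale) against its level in le × ts embryos above the *X. laevis* background (y axis, TPM, log scale). The lines mark ratios of 1, 0.1 and 0.01, red points are the 181 transcripts above background, and 5977 transcripts with a difference of 0 or less are not shown. Most of the grey cloud lies below the 0.01 line at high levels, and the red points above the line of ratio 1 are transcripts of low level such as *esr-5* and *hes7*.

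In a limma fit of le × ts against *X. tropicalis* embryos on log2(TPM + 1), 10818 of the 10988 transcripts were called lower in le × ts, 4 were called higher and 166 were not called (Benjamini-Hochberg adjusted p under 0.05 and a log2 difference above 1). Over all 26710 transcripts tested, 40.5% were called lower and 58.4% higher, the latter nearly all *X. laevis* transcripts. With so many called, the adjustment changed little. In the higher direction 15611 passed both limits before adjustment and 15608 after it. Adjusted p-values of this fit are therefore close to unadjusted ones, with 2 libraries in each group. Every transcript passed the filter of the fit through its level in *X. tropicalis* embryos, so the number called lower describes these libraries and is no support for any group of them. Of the 166 that were not called, 53 were among the 181 above background.

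The 21 transcripts above background with a ratio of 0.5 or more include 17 with a gene symbol. Among them, 19 stood at 0 TPM in both *X. laevis* libraries, and the highest *X. laevis* value was 0.405 TPM. The le × ts and *X. tropicalis* values overlapped in 13 of the 21, both le × ts libraries lay above both *X. tropicalis* libraries in 4, and both lay below in 4. Over all transcripts tested, 58.8% lay above in this way and 41.0% below. Genes of the Hes and Esr family gave 6 of the 21 and znf genes 5. The znf genes had 204 transcripts in all, of which 171 had a ratio of 0.01 or less. Over all transcripts described here, 0.191% were among the 21 and 93.5% had a ratio of 0.01 or less. No total is given for the Hes and Esr family, so its 6 cannot be set against such a share.

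Some members of the Hes and Esr family, basic helix-loop-helix repressors that act downstream of Notch signalling, had the highest ratios. Others above background were lower, such as *hes4* (0.220) and *hes2* (0.181), and *hes7* summed over its transcripts had a ratio of 0.110. *esr-5* (Tan201204_XENTRc1st19b_000054570) stood at 28.0 and 26.5 TPM in le × ts and 6.16 and 10.1 TPM in *X. tropicalis*, with 0 TPM in both *X. laevis* libraries. Its values in both le × ts libraries were above both of *X. tropicalis*, and it was called higher (log2 difference 1.66 ± 0.27 SE, limma adjusted p = 0.00569, n = 2 in each group). A further *esr-5* transcript (Tan201204_XENTRc1st09_000023798) stood at 6.06 and 4.10 TPM against 1.92 and 1.55 TPM and was called higher as well (log2 difference 1.14 ± 0.22 SE, limma adjusted p = 0.0106). *hes7* (Tan201204_XENTRc2st10_000029799) reached 12.1 and 18.5 TPM in le × ts and 8.41 and 5.21 TPM in *X. tropicalis* (log2 difference 1.06 ± 0.33 SE, limma adjusted p = 0.0396). These 3 calls and that of *opn5*, an opsin, are the 4 higher calls, and quantile normalization left none of them. *opn5* had a ratio of -0.0887, with 29.8 and 53.4 TPM in le × ts but 33.7 and 50.6 TPM in *X. laevis*, so that its level in the hybrid was that of the background.

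*hes9* stood at 2.96 and 5.80 TPM in le × ts and 2.33 and 1.83 TPM in *X. tropicalis*, a ratio of 2.11 that was not called. *esr10* stood at 43.7 and 21.8 TPM against 46.1 and 42.5 TPM, a ratio of 0.734, and *hes3* at 9.19 and 4.20 TPM against 6.31 and 12.4 TPM, a ratio of 0.717. In *esr10* the hybrid's replicate 1 lay between the *X. tropicalis* libraries and its replicate 3 below them. *dlc*, a Delta-type Notch ligand, stood at 4.66 and 1.53 TPM in le × ts and 2.22 and 2.93 TPM in *X. tropicalis*. A low member of the group was *cirbp*, the cold-inducible RNA-binding protein, whose transcript Tan201204_XENTRc1st11b_000000286 stood at 1.27 and 1.21 TPM against 1.5 and 1.32 TPM. Summed over its transcripts, *cirbp* had a ratio of 0.0198.

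**Figure D2:**
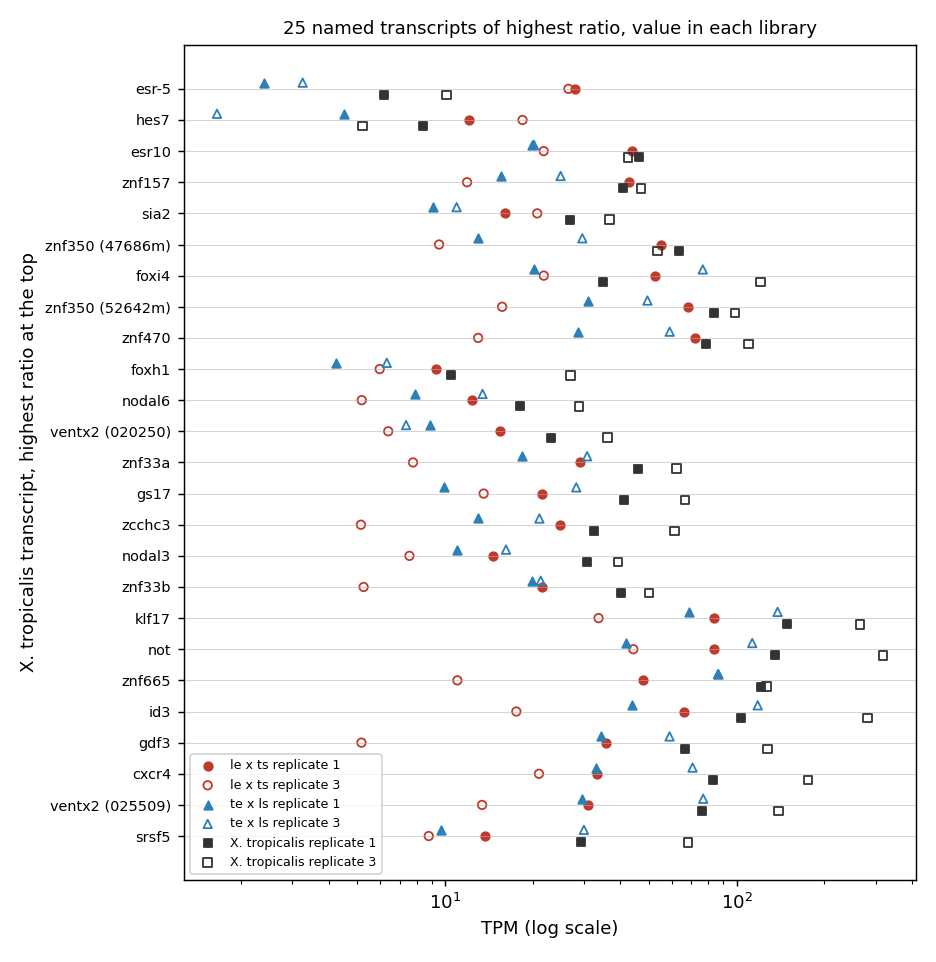
TPM (x axis, log scale) in each library for the 25 named transcripts of highest ratio whose lower le × ts value was 5 TPM or more, with the highest ratio at the top. Symbols of 2 transcripts carry the end of the identifier. Red circles are le × ts, blue triangles te × ls and black squares *X. tropicalis*, filled for replicate 1 and open for replicate 3. For *esr-5* and *hes7* both red circles lie to the right of both black squares, and for the znf transcripts the open red circle is the leftmost point.

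Genes of the dorsal organizer, the signalling centre set up where maternal beta-catenin is stabilised, were near the top of the ratios. Of 21 transcripts on this list, 9 were above background (42.9%, against 1.65% of all 10988), and the median ratio was 0.123. In the fit against *X. tropicalis* embryos 14 were called lower and 7 were not called. Over all 10988 transcripts, 10818 were called lower and 166 were not called. *sia2*, a siamois homeobox gene directly switched on by beta-catenin, stood at 16.1 and 20.7 TPM in le × ts and 26.9 and 36.7 TPM in *X. tropicalis*, a ratio of 0.578. Its neighbour in the numbering of identifiers, *sia1* (Xetrov14048885m), stood at 10.8 and 3.73 TPM against 14.9 and 21.1 TPM. The Nodal family ligands *nodal6* (12.3 and 5.18 TPM against 18.0 and 28.8 TPM, ratio 0.374) and *nodal3* (14.7 and 7.56 TPM against 30.8 and 39.2 TPM, ratio 0.318) followed. In all of these both hybrid libraries lay below both *X. tropicalis* libraries.

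Secreted factors of the organizer followed. *nog*, which binds bone morphogenetic proteins (BMP), had a ratio of 0.239 (5.28 and 3.05 TPM against 12.1 and 22.7 TPM), *dkk1*, a Wnt inhibitor, 0.316 (2.15 and 2.06 TPM against 4.38 and 8.94 TPM), and *admp*, a BMP-like ligand, 0.108. *not*, a homeobox gene of the notochord, was the most abundant of the list in le × ts, at 83.5 and 44.3 TPM against 135 and 318 TPM (ratio 0.281). *gsc*, the goosecoid homeobox gene, stood at 1.49 and 0 TPM in le × ts and 12.3 and 23.6 TPM in *X. tropicalis* and was not above background. The lowest ratio on the list among transcripts of 10 TPM or more was that of *tcf7l1* (0.00386), a nuclear partner of beta-catenin at 138 and 142 TPM in *X. tropicalis* embryos.

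Mesendoderm factors, which specify mesoderm and endoderm, were above background in 10 of 25 transcripts (40.0%), with a median ratio of 0.104. A *bix1* homeobox transcript (Tan201204_XENTRc2st09_000020661) stood at 16.5 and 3.22 TPM in le × ts against 18.3 and 45.5 TPM (ratio 0.310), and *mix1* at 16.6 and 4.81 TPM against 31.1 and 98.8 TPM (ratio 0.165). *sox17b*, an endoderm factor, stood at 5.60 and 3.85 TPM against 10.5 and 28.6 TPM (ratio 0.242), and the ligand *wnt8a* at 6.63 and 1.75 TPM against 11.0 and 24.9 TPM (ratio 0.233). *gdf3*, a ligand of the transforming growth factor beta family, reached 35.6 and 5.17 TPM against 66.7 and 128 TPM (ratio 0.209). At the other end, *vegt*, a T-box factor whose RNA is stored in the vegetal part of the egg, stood at 547 and 545 TPM in *X. tropicalis* embryos and 4.58 and 0.976 TPM in le × ts, a ratio of 0.00424.

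The ventral list, made of BMP pathway genes and their targets, had 7 of 18 transcripts above background (38.9%) and a median ratio of 0.0614. *ventx2*, a ventral homeobox gene, was read in 3 transcripts above background, with ratios of 0.368, 0.206 and 0.149. The highest of them stood at 15.4 and 6.39 TPM in le × ts and 23.1 and 36.2 TPM in *X. tropicalis*, and the most abundant at 31.0 and 13.4 TPM against 76.0 and 139 TPM. *id3*, an inhibitor of basic helix-loop-helix factors that responds to BMP, stood at 65.8 and 17.6 TPM against 104 and 281 TPM (ratio 0.217). *smad7*, an inhibitor of the same pathway, stood at 82.9 and 88.7 TPM in *X. tropicalis* and 0.0750 and 0 TPM in le × ts. The members with signal in le × ts and those near 0 thus stood on the same list.

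Ectodermal genes showed the same contrast within 1 family. *foxi4*, a forkhead factor of the ectoderm, reached 52.6 and 21.8 TPM in le × ts against 34.8 and 121 TPM in *X. tropicalis*, a ratio of 0.479 with overlapping values. *foxi1* stood at 11.2 and 1.15 TPM against 15.5 and 22.2 TPM, a ratio of 0.325. *klf17*, a Krüppel-like zinc finger factor, was among the highest of all in le × ts, at 83.7 and 33.6 TPM against 149 and 265 TPM (ratio 0.283). *foxi2* stood at 203 and 193 TPM in *X. tropicalis* embryos and 0.114 and 0 TPM in le × ts. On the whole list 6 of 18 transcripts were above background (33.3%), with a median ratio of 0.0153.

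The pluripotency and neural list held 13 transcripts above background among 32 (40.6%), with a median ratio of 0.0829, and the Hes and Esr genes above other than *hes9* were among them. *sox3*, a neural and pluripotency factor, was abundant in *X. tropicalis* embryos at 1548 and 1672 TPM and stood at 45.2 and 27.4 TPM in le × ts, a ratio of 0.0213. *oct25*, a POU factor of the Oct4 class, stood at 38.5 and 22.6 TPM against 249 and 413 TPM, a ratio of 0.0921. On none of the lists were *cxcr4*, *gs17* and *zcchc3*. *cxcr4*, a chemokine receptor, stood at 33.2 and 21.0 TPM against 83.3 and 176 TPM (ratio 0.209). *gs17* (21.5 and 13.6 TPM against 41.1 and 66.5 TPM) and *zcchc3*, a zinc-knuckle protein (24.7 and 5.15 TPM against 32.4 and 61.2 TPM), had ratios of 0.324 and 0.319.

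Across the 5 embryonic lists without zinc fingers, 45 of 114 transcripts were above background (39.5%, against 1.65% of all 10988), with a median ratio of 0.0916 against a median of 0 over all. All lists were chosen with earlier results of these data known. The embryonic ones hold genes that the paper had picked from le × ts embryos, so these shares are a description and no support. Summed over the list, organizer transcripts came to 178 and 93.6 TPM in le × ts and 506 and 881 TPM in *X. tropicalis*, with at most 0.361 TPM in *X. laevis*.

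Zinc finger genes with znf symbols, proteins of the C2H2 type that bind DNA, were split. Of 204 transcripts, 14 were above background (6.86%) and 13 of these had a ratio above 0.1, while the median of the list was 0.000147. *znf157* (Xetrov14052644m) stood at 42.9 and 11.9 TPM in le × ts and 40.8 and 47.1 TPM in *X. tropicalis*, a ratio of 0.624. *znf350* (Xetrov14047686m) stood at 55.0 and 9.55 TPM against 63.4 and 53.5 TPM, and *znf470* (Xetrov14052647m) at 72.1 and 13.0 TPM against 78.7 and 110 TPM. In each of these, replicate 1 of the hybrid was near or within the *X. tropicalis* values and replicate 3 was below both. Replicate 1 of le × ts was the higher in 14 of the 14 transcripts, with a median of 4.33 times replicate 3. Such genes have many near-identical copies, and the paper describes discarding reads with more than 1 target, so the levels of single copies are uncertain.

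At the other end stood abundant transcripts with a ratio near 0. No library of eggs was sequenced, so whether these are RNAs of the egg was not tested. Of 2869 transcripts at a mean of 100 TPM or more in *X. tropicalis* embryos, 2803 had a ratio of 0.01 or less. Among these 2803, 27 were above background in le × ts. In the median of the 2869, le × ts replicates 1 and 3 held 0.115% and 0.154% of the *X. tropicalis* level, close to the 0.0934% and 0.122% held by the *X. laevis* libraries. The most abundant with a gene symbol was *ccnb1*, the mitotic cyclin B1 (Tan201204_XENTRc2st09_000024360), at 4349 and 3659 TPM in *X. tropicalis*, 4.66 and 8.61 TPM in le × ts and 5.75 and 9.44 TPM in *X. laevis*. *ccnb2* (3938 and 3007 TPM) and *ccna1*, a cyclin A of early embryos (3448 and 3066 TPM), stood at 5.59 and 8.93 TPM and at 3.47 and 7.48 TPM in le × ts. *ccnb2* stood at 4.10 and 7.44 TPM and *ccna1* at 4.81 and 8.99 TPM in *X. laevis*, so that for these cyclins the le × ts and *X. laevis* values overlapped.

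Among the 15 named transcripts of highest level with a ratio of 0.01 or less were genes of DNA synthesis, chromatin and translation. *rrm2*, a subunit of ribonucleotide reductase, stood at 7.73 and 4.80 TPM in le × ts and 4.03 and 5.19 TPM in *X. laevis*. *npm1*, the nucleolar chaperone nucleophosmin, stood at 3.17 and 4.61 TPM against 2.72 and 4.58 TPM. *gmnn*, geminin, an inhibitor of replication licensing, departed most from the background, at 21.5 and 5.48 TPM in le × ts and 2.15 and 4.37 TPM in *X. laevis*, beside 2352 and 2878 TPM in *X. tropicalis* embryos. *mt-co1*, a mitochondrial gene passed on through the egg, stood at 2.17 and 8.28 TPM in le × ts, 2.39 and 2.59 TPM in *X. laevis*, and 2086 and 2096 TPM in *X. tropicalis*.

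The 3 maternal lists of stored RNA are egg and oocyte RNAs, germ plasm RNAs and cleavage cell cycle genes. Of their 95 transcripts, 4 were above background (4.21%, against 1.65% of all 10988), and the median ratio was 0, as over all. By list these were 1 of 33 egg and oocyte transcripts (3.03%), namely a *foxh1* transcript, and 3 of 43 cell cycle transcripts (6.98%). None of 20 germ plasm transcripts was, and their highest value in le × ts was 1.51 TPM. *dazl*, a germ plasm RNA-binding protein, stood at 95.4 and 144 TPM in *X. tropicalis* and 0.192 and 0.840 TPM in le × ts. *trim36*, an egg RNA for a ubiquitin ligase, stood at 80.1 and 81.1 TPM against 0.112 and 0.163 TPM. On 3 of the housekeeping lists, for ribosomal proteins, the proteasome and the respiratory chain, 1 of 223 transcripts was above background (0.448%). It was *rpl10*, at 1.54 and 2.39 TPM beside 228 and 225 TPM in *X. tropicalis*. Housekeeping genes as a whole were not this low. The housekeeping lists of SR splicing factors (38.5% above background) and elongation factors (33.3%), described below, went the other way. The muscle, blood and liver list had *tnnt2* as its only transcript, and it was not above background by the rule. Replicate 1 of le × ts was at the *X. laevis* level (107 TPM, beside 108 and 103 TPM). Replicate 3 was above it, at 754 TPM.

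The SR splicing factors and the elongation factors had members of small ratio that were nonetheless above background. These were 5 of 13 transcripts (38.5%) and 2 of 6 (33.3%), against 1.65% of all 10988. *srsf5* was read in a transcript at 13.7 and 8.80 TPM in le × ts against 29.3 and 68.1 TPM (ratio 0.186), and *srsf7* stood at 26.5 and 10.03 TPM against 416 and 792 TPM (ratio 0.0292). *eef1a1o*, an elongation factor 1 alpha form, stood at 72.3 and 13.0 TPM in le × ts, 0.590 and 1.39 TPM in *X. laevis* and 1042 and 990 TPM in *X. tropicalis*, a ratio of 0.0410. Stress and immediate early genes were above background in 6 of 25 transcripts (24%). Among them were the phosphatase *dusp5* (6.68 and 1.49 TPM against 14.9 and 26.9 TPM) and *ddit4*, an inhibitor of TOR signalling (26.2 and 10.1 TPM against 1154 and 1310 TPM).

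**Figure D3:**
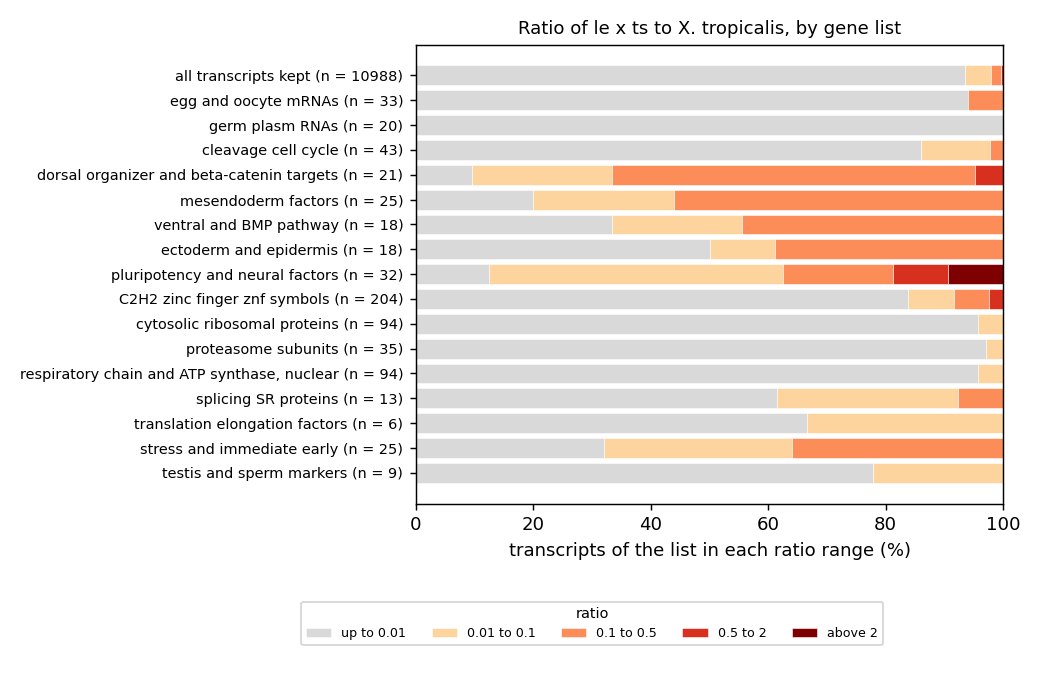
Share of the transcripts of each gene list (x axis, %) in 5 ranges of the ratio, for all 10988 transcripts and for the lists with 5 transcripts or more. Grey is a ratio of 0.01 or less and darker reds are higher ratios. Germ plasm RNAs are grey throughout, and the organizer list, with a median ratio of 0.123, has the smallest grey share.

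Transcripts under the same symbol could stand at opposite ends. *foxh1*, the forkhead partner of Smad proteins in Nodal signalling, was read in a transcript (ENSXETT00000045081) at 551 and 590 TPM in *X. tropicalis* and 0.449 and 0.455 TPM in le × ts. A further *foxh1* transcript (Tan201204_XENTRc2st11_000021276) stood at 10.5 and 27.0 TPM in *X. tropicalis* and 9.34 and 5.97 TPM in le × ts, a ratio of 0.408. For *hes7*, the transcript with a ratio of 2.25 contrasted with an abundant one at 501 and 591 TPM in *X. tropicalis* and 63.6 and 28.3 TPM in le × ts, a ratio of 0.0837. Whether such transcripts come from different genes or from parts of 1 gene was not looked up.

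The te × ls embryos were not used in the ratio, and like *X. tropicalis* embryos they come from *X. tropicalis* eggs. They received *X. tropicalis* chromosomes from the egg only, whereas *X. tropicalis* embryos received them from both parents. The part of this in the values below was not tested. The labels do not say whether both groups had eggs of the same females. Over all 10988 transcripts the te × ls mean was 0.990 times the *X. tropicalis* mean in the median. By range of the le × ts ratio, the median was 0.993 at 0.01 or less, 0.937 from 0.01 to 0.1, 0.467 from 0.1 to 0.5, 0.393 from 0.5 to 2 and 0.347 above 2. Both comparisons share the *X. tropicalis* libraries, so they are given side by side and not as independent support. Among the 21 transcripts above background at 0.5 or more, te × ls was lower than *X. tropicalis* in both replicate numbers in 21, and both te × ls libraries lay below both *X. tropicalis* libraries in 20. These counts are to be read against 35.0% and 11.0% of the transcripts of either species that reached 1 TPM in each *X. tropicalis* library. Of the 2803 abundant transcripts near 0, 938 were lower in both numbers and the median was 0.997.

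Individual genes showed the size of this difference. *sia2* stood at 9.11 and 11.0 TPM in te × ls and 26.9 and 36.7 TPM in *X. tropicalis*, and *bix1* (Tan201204_XENTRc2st09_000020661) at 3.02 and 11.6 TPM against 18.3 and 45.5 TPM. *esr-5* (Tan201204_XENTRc1st19b_000054570) stood at 2.40 and 3.25 TPM against 6.16 and 10.1 TPM. *znf665* (xb201405_189442274) was less far apart, at 86.7 and 86.4 TPM against 121 and 127 TPM. *sox17b* was among the exceptions, at 7.81 and 29.8 TPM in te × ls and 10.5 and 28.6 TPM in *X. tropicalis*, 0.965 times the mean. A further one was *h2afx* (le × ts ratio 0.175), at 15.6 and 20.6 TPM against 18.9 and 16.8 TPM, 1.02 times the mean. Of the 75 transcripts above background with ratios from 0.1 to 0.5, 71 were lower in te × ls in both replicate numbers. Over all 10988 transcripts this share was 34.9%.

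**Figure D4:**
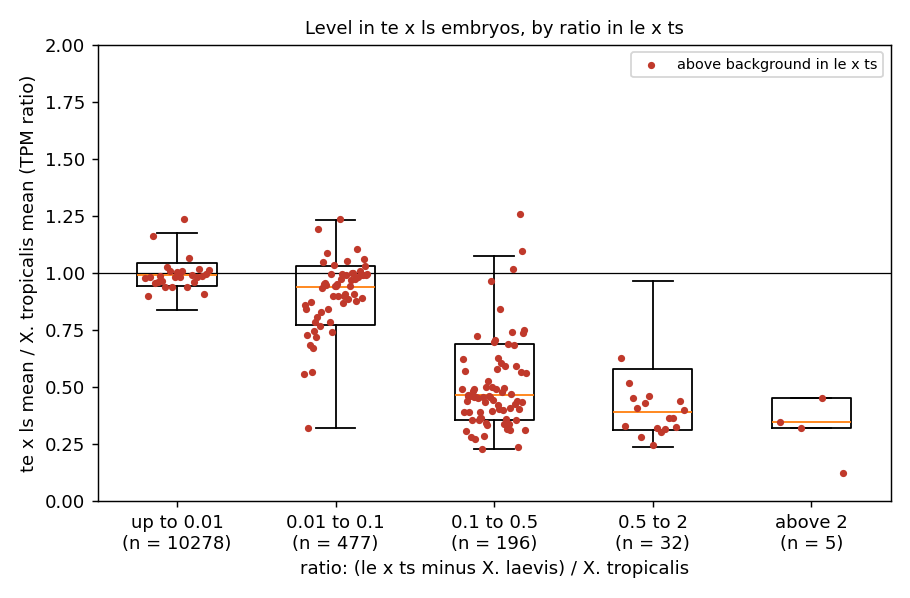
Mean TPM in te × ls embryos divided by the mean in *X. tropicalis* embryos (y axis), for transcripts grouped by the le × ts ratio (x axis). Boxes span the quartiles with the median as a line, whiskers run from the 5th to the 95th percentile, and red points are the transcripts above background in le × ts. The medians fall from 0.993 in the lowest range to 0.347 in the highest, and both axes use the *X. tropicalis* libraries.

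The *X. laevis* transcripts of the same symbols give the egg's side of the hybrid. In le × ts embryos the *X. laevis* chromosomes come from the egg only, and in *X. laevis* embryos from both parents. The part of this in the levels was not tested. Of the 181 transcripts above background, 21 have no symbol and could not be matched. The others carry 145 symbols, of which 128 also name *X. laevis* transcripts. Where the best ratio of a symbol was above 0.1, the summed *X. laevis* level in le × ts was 0.614 times that in *X. laevis* embryos in the median. It was 1.001 times for best ratios from 0.01 to 0.1 and 1.05 times at 0.01 or less, and 1.01 times over the 9749 *X. laevis* symbols that both *X. laevis* libraries held at no less than 1 TPM. *sia2* in its *X. laevis* form stood at 17.7 and 15.5 TPM in le × ts and 34.6 and 36.8 TPM in *X. laevis*, and *cxcr4* at 38.5 and 17.7 TPM against 89.6 and 65.5 TPM. *foxh1* stood at 257 and 421 TPM against 259 and 294 TPM.

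In te × ls embryos, where *X. laevis* transcripts can come only from the sperm's chromosomes, 40 of the 55 symbols with a best ratio above 0.1 and an *X. laevis* transcript were above background, by the same rule. This was so for 38 of 48 from 0.01 to 0.1 and for 8 of 25 at 0.01 or less, against 3.20% of the 9749 symbols. The *X. laevis* transcripts of *ventx2* stood at 62.1 and 93.2 TPM in te × ls and at 0.106 and 0.331 TPM in *X. tropicalis*, beside 267 and 119 TPM in *X. laevis* embryos. Those of *not* stood at 35.2 and 68.1 TPM, beside 216 and 189 TPM. *nodal3* was at 0 TPM in both te × ls libraries, beside 14.5 and 13.3 TPM in *X. laevis*, and *znf470* stood at 0.135 and 0.126 TPM, beside 36.2 and 32.5 TPM. Symbols with a high ratio in le × ts thus had *X. laevis* transcripts of the same symbol at very different levels in te × ls. The species were matched by symbol alone, with all *X. laevis* transcripts of a symbol summed. Whether they are the same gene was not looked up, and znf symbols can name many copies.

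The ratio depended on the library. Among the 181 transcripts, le × ts replicate 1 was above replicate 3 in 162, with a median of 2.54 times, whereas *X. tropicalis* replicate 3 was above replicate 1 in 140 and te × ls replicate 3 above replicate 1 in 138. Over all 10988 transcripts, le × ts replicate 1 was the higher in 3496 and replicate 3 in 3314. Replicate 3 was the higher in 4974 in *X. tropicalis*, where replicate 1 was in 6014. In te × ls these numbers were 4907 and 6080. Computed from the libraries numbered 1 alone, the median ratio of the 181 was 0.212, and from those numbered 3 it was 0.0477. In 57 transcripts the ratio was 0.5 or more by the libraries numbered 1 and in 9 by those numbered 3, and these 9 reached it by both. They were both *esr-5* transcripts, *hes7*, *hes9*, *esr10*, *sia2*, *dlc*, the low *cirbp* transcript and an unnamed transcript at 14.0 and 17.8 TPM in le × ts and 24.6 and 30.3 TPM in *X. tropicalis*. Without le × ts replicate 3 the number above background at 0.5 or more was 68, and without le × ts replicate 1 it was 17, of which 9 were among the 21. The number above background was 420 without le × ts replicate 3 and 304 without replicate 1, since the rule then asks for 1 hybrid library only. The reads of le × ts replicate 3 were estimated from low TPM values at 0.451 times those of replicate 1. The part of depth in this was not tested.

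**Figure D5:**
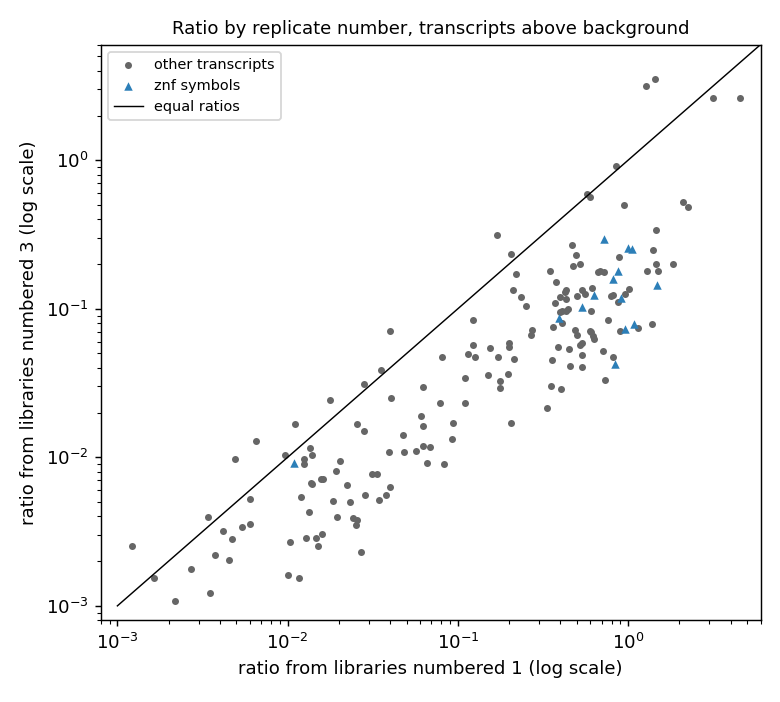
Ratio of le × ts to *X. tropicalis* computed from the libraries numbered 1 (x axis, log scale) and from those numbered 3 (y axis, log scale) for the 181 transcripts above background. Blue triangles are znf symbols and the line marks equal ratios. In 165 of the 181 the ratio is higher by the libraries numbered 1, and the znf triangles lie below the line throughout.

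The limma fit of le × ts against *X. laevis* embryos, which tests the signal over background, called none of the 476 transcripts that passed its filter, and 0% of all 17526 tested in either direction. Before adjustment, 158 of them had a p under 0.05 and stood more than 1 higher in le × ts on the log2 scale, and 0 lower, against 0.913% and 0.251% of the 17526. Of the 476 transcripts, 297 passed the filter with less than 1 TPM in at least 1 *X. laevis* library and so needed a le × ts library to pass, which sets much of this direction, and the counts are a description. With the replicate number as a block 114 were called higher, where 0.662% of all transcripts were called higher and 0.143% lower. With adjustment within each species 81 were called higher, against 0.462% of all. The exact permutation test of 2 against 2 libraries cannot give a two-sided p under 0.333.

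At the limit of 0.5, the named transcripts just inside were *znf630* (ratio 0.533), *atp1b2* (0.535), *znf350* (Xetrov14047686m, 0.552), *znf470* (xb201405_77623946, 0.571) and *sia2* (0.578). Those just outside were *znf33a* (xb201405_77622785, 0.487), *foxi4* (0.479), *gng3* (0.474), *or8d4* (0.468) and *znf665* (Xetrov14052632m, 0.465). A further 16 transcripts had a ratio of 0.5 or more without being above background by the rule. In 6 of them, *tnnt2*, *eif3c*, *stim1*, *ctsb*, *sec23ip* and an unnamed transcript, the *X. laevis* mean was 10% or more of the *X. tropicalis* mean, and the ratio came from le × ts replicate 3 alone. The other 10 had signal mainly in le × ts replicate 1. *prdm9* (Xetrov14049865m), a zinc finger histone methyltransferase, stood at 19.1 and 0.772 TPM, and *aplnr*, the apelin receptor, at 9.65 and 0.177 TPM.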

How the data were processed

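The 8 libraries were made from polyadenylated RNA of whole embryos at stage 9. The authors mapped reads with Bowtie to a combined transcript database of both species, allowing no mismatch and a single target, and estimated abundance with RSEM. The sample records name BWA 0.7.10 instead, and this difference was not resolved. The values the authors deposited are TPM, 1 per transcript and library. Groups were taken from the sample titles. TPM keeps no read number, so depth is known only as relative reads, from the commonest ratio of values between 0.03 and 0.3 TPM.

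Ratios and counts were computed from TPM with pandas 2.3.3. Transcripts at 1 TPM or more in 2 of the 4 libraries compared were fitted with limma 3.58.1 (R 4.3.3), with a mean trend, on log2(TPM + 1), and adjusted by Benjamini-Hochberg over both species. This scale understates the change of low transcripts. The fit was tested on simulated data with 200 changed transcripts and all others unchanged. This is unlike the fit against *X. tropicalis* embryos, where nearly all were called, so the simulation does not bear on the calls made there.

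The transcripts and the 17 gene lists were chosen with earlier results of these data known. Named were the 25 transcripts above background of highest ratio with a lower le × ts value of 5 TPM or more, the 15 of highest *X. tropicalis* level at a ratio of 0.01 or less, on each list the 2 highest and 2 lowest ratios among those with a mean of 10 TPM or more, and 5 on each side of 0.5. Others were chosen after their values were seen. Alternatives were other pseudocounts, filters, scalings, thresholds and fits, the replicate block, and each library left out. No reference sequence or annotation was used, so positions and sequences are not given.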

Additional observations from a re-analysis of the deposited data

Results flagged for a closer look

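Among the 3048 *X. tropicalis* transcripts outside the rule, which were under 1 TPM in at least 1 *X. tropicalis* library, 1 was above background in le × ts. It was *tshb*, the beta subunit of thyroid-stimulating hormone, at 1.004 and 3.41 TPM in le × ts, 0 TPM in both *X. laevis* libraries, 0.870 and 0 TPM in *X. tropicalis*, and 3.16 and 0.780 TPM in te × ls. It was picked out because it is signal in data that the ratio does not use.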

How the results depend on the processing

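The number of transcripts called lower in le × ts than in *X. tropicalis* (10818) was 9265 to 10950 under the alternatives that kept all libraries. It was 736 to 10923 with 1 library left out, the low values being those without an *X. tropicalis* library, where the filter on 2 libraries left 858 or fewer of the transcripts to test. The 4 higher calls became 0 after quantile normalization and 2 with the 5 TPM rule for membership, and 2 to 7 with 1 library left out. Higher calls against *X. laevis* went from 0 to 114 with the replicate block, 4 with all 4 groups in 1 fit and 81 with adjustment within each species, and 0 to 1 with 1 library left out. Lower calls against *X. laevis* over all transcripts went from 0 to 25 with the block, 0 of them among the 476. Against *X. tropicalis* the block gave 10895 lower and 4 higher. The deviations of same-numbered libraries correlated at 0.764 for le × ts and *X. laevis* (0.194 over the 476 transcripts tested here), at -0.0299 for le × ts and *X. tropicalis* (-0.114 over the 10988) and at 0.842 for te × ls and *X. tropicalis* (0.833 over the 10988), over 2 numbers that the labels do not tie to a shared batch. The count above background (181) was 261 at a detection level of 0.5 TPM and 50 at 5 TPM. It was 139 at a margin of 5 times over background, and 181 to 420 with 1 library left out. The 21 at a ratio of 0.5 or more became 25 at a detection level of 0.5 TPM and 8 at 5 TPM. They became 14 with the 5 TPM rule for membership, 53 at a threshold of 0.25, and 17 to 68 with 1 library left out. With the mean of the ratios of same-numbered libraries they became 29, with 20 of the 21 kept. The 2803 abundant transcripts near 0 ranged from 2770 to 2885. Of 728 recomputed ratios of 104 named transcripts, 643 moved by less than the replicate SD and 85 by more, and none with a call changed sign. Apart from the effect of the filter, the causes were not tested. With 2 libraries in each group and an estimated 0.451 times the reads of le × ts replicate 1 in its replicate 3, values near 1 TPM are the least certain.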

Other observations

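A run of neighbouring identifiers, numbered from Xetrov14052613m to Xetrov14052658m, held many of the high ratios, and it was picked after its values were seen, so no test was made. Of its 14 transcripts, 7 carry znf symbols and 7 have no name. In 10 the level in le × ts was above background, against 27 of the 1898 other transcripts with identifiers of this kind, and the median ratio was 0.445 against 0. The highest level was that of the unnamed Xetrov14052619m, at 103 and 18.1 TPM in le × ts, 0.257 and 0.0750 TPM in *X. laevis*, and 118 and 162 TPM in *X. tropicalis* embryos. *znf665* (Xetrov14052632m) stood at 39.7 and 4.64 TPM in le × ts and 36.4 and 58.9 TPM in *X. tropicalis*, while *znf83* (Xetrov14052616m) was at 0 TPM in both le × ts libraries beside 3.83 and 3.92 TPM. In te × ls the median of the 14 was 0.459 times the *X. tropicalis* level. Whether the identifiers lie side by side on a chromosome was not looked up, and reads of near-identical copies may be assigned among them with uncertainty.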
